A study of Mus musculus with 2 samples.

Results

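Basolateral bile acid transporters sit on the face of the hepatocyte that meets the blood, where they take bile acids up from the portal circulation or return them to it. The 6 genes described here are Slc10a1, Slc51a, Slc51b, Abcc3, Abcc4 and Abcc6, chosen by name, and they are 6 of 21627 protein-coding genes on chromosomes 1 to 19 and X. Their loci are the 13 bins of 50 kb, of 54521 in the genome, that overlap the genes in the mm10 build. The measurements are 2 libraries of Foxa2 HiChIP, in which DNA ends that lie near each other in the nucleus are ligated and pulled down by an antiserum raised to Foxa2, a forkhead factor that opens liver chromatin. Both libraries came from whole liver of wildtype mice, taken 4 h after 1 oral gavage. The vehicle library came from mice given propylene glycol with Tween 80, and the GW4064 library from mice given the synthetic agonist GW4064 of the bile acid receptor FXR in that vehicle. Strain, age, sex, dose and the number of animals behind each library are not stated in the sources used. As the title of the series states, the question is how Foxa2 takes part in changes of chromatin conformation when FXR is activated.

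In liver, Slc10a1 (NTCP) is the main sodium-dependent carrier for uptake of conjugated bile acids, and it is known to be lowered through FXR and the corepressor SHP. Slc51a and Slc51b (OST alpha and OST beta) form a transporter that works only as a pair, exports bile acids down their gradient and is a classical FXR target. Abcc3 (MRP3) and Abcc4 (MRP4) are ATP-driven pumps that export bile acids and conjugates to blood when canalicular secretion is impaired, and Abcc6 (MRP6) is their relative, known for ATP release from hepatocytes and for preventing ectopic calcification.

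The promoters of the exporter pair and of the uptake carrier are shown because each lies in the single bin whose contacts are described for that gene. RefSeq promoters on GRCm38.p6, which shares its coordinates with mm10, were matched for 4 of the 6 genes. Each window runs 5′ to 3′ from 250 bases before the start to 50 bases after it, and capitals mark matches to the motifs searched.
Slc51b (chr9:65422724-65423023, minus strand): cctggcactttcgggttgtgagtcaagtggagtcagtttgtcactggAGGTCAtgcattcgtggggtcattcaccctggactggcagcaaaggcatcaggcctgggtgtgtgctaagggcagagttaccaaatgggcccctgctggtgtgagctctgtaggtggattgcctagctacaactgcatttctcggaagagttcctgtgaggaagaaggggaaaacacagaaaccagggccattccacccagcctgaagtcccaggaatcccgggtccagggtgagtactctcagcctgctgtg
Slc51a (chr16:32487830-32488129, minus strand): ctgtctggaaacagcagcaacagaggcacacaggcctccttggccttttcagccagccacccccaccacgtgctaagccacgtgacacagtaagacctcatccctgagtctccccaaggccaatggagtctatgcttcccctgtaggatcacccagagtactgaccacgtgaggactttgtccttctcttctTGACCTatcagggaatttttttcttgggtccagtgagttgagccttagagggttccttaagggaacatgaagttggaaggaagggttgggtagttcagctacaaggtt
Slc10a1 outer start (chr12:80968656-80968955, minus strand): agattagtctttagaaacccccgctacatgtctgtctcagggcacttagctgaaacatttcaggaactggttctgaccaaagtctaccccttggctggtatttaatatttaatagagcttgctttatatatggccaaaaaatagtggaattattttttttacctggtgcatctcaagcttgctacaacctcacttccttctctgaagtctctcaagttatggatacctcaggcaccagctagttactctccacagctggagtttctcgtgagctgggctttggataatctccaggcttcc
Slc10a1 inner start (chr12:80968030-80968329, minus strand): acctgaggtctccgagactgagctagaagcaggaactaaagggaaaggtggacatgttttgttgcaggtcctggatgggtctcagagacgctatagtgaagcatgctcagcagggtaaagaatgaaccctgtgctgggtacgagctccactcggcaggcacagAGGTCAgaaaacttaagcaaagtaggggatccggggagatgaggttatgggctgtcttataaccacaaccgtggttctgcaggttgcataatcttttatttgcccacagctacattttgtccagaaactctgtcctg
The motifs searched on both strands were TGTTTAC, the common forkhead sequence, with its variant TATTTAC and the further variant TGTTTGC. Also searched were AGGTCA, an element of nuclear receptors, and the FXR element IR-1, an inverted repeat of it with 1 base between the copies. AGGTCA matched at bases 48 to 53 of the Slc51b window. It matched on the opposite strand, as TGACCT, at bases 193 to 198 of the Slc51a window, and at bases 164 to 169 of the inner Slc10a1 window. Among all 32851 promoter windows, 16.3% held this element. None of the 3 forkhead sequences was in the 6 windows matched to these genes, against 3.65%, 3.04% and 5.07% of all windows. The exact IR-1 repeat was in 3 of all windows (0.00913%) and in 0 of these. Sites that depart from the exact repeat were not searched, so this does not show that an FXR site is absent. At 50 kb, the contacts do not resolve these windows from the rest of the bin.

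Depth was 22686004 contacts for vehicle and 29003442 for GW4064, a ratio of 1.28. With 1 library per group there is no replicate and no test of the treatment, so each difference compares those 2 libraries, and all intervals are 95% intervals that cover counting error only. In whole liver, the makeup of cells, the recovery of a bin by the antiserum and the contacts of a bin in each cell cannot be told apart. Contacts give no measure of expression, and loci of hepatocyte markers did not stand above others: their median percentile of contacts within a bin was 54.7 in vehicle and 33.2 in GW4064, against 61.9 and 73.1 for neuronal genes. The other 4 marker lists, for Kupffer cells and leukocytes, endothelium, stellate cells and cholangiocytes, lay at percentiles 43.5 to 60.6 in vehicle and 29.7 to 55.5 in GW4064, and no marker locus had 0 such contacts in either library.

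Of the 6 loci, 4 had lower local contacts in GW4064 than in vehicle by 0.32 or more on the log2 scale, and 0 were higher by as much. Local contacts are those with bins 50 kb to 2 Mb away on the same chromosome, and ratios are scaled to equal totals of such contacts in both libraries. Of the 20726 protein-coding loci that reached 200 local contacts in the sum of both libraries, 33.1% were lower by that amount and 1.32% higher. The median log2 ratio was -0.53 over the 6 loci and -0.18 over all tested loci, with 10% of loci below -0.62 and 10% above 0.15. Abcc6, Abcc3, Slc51b and Slc10a1 were the loci past this threshold, in that order, and Slc51a and Abcc4 were not.

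**Figure D1:**
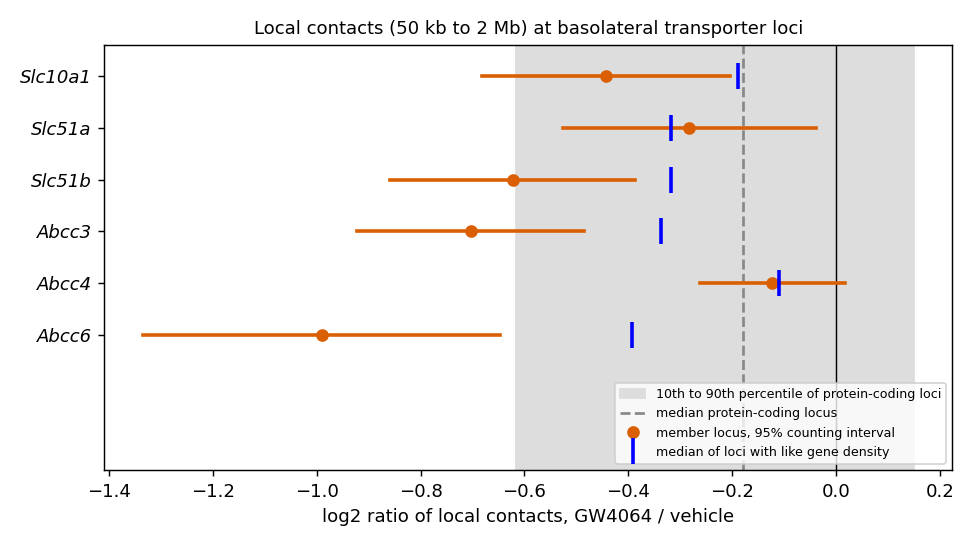
Log2 ratio of local contacts (GW4064 over vehicle, x axis) for each locus, with its 95% counting interval. The dashed line marks the median protein-coding locus, the grey band the 10th to 90th percentile of loci, and each blue tick the median of loci with like gene density. Abcc6 lies farthest to the left at -0.99, and Abcc4 at -0.12 lies beside its blue tick.

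Part of the low values went with gene density, which was compared after the data were seen. Gene density is the number of protein-coding genes in the 21 bins around a locus, and loci in gene-rich surroundings were lower in the GW4064 library. It was 42 around Abcc6, 29 around Abcc3, 24 around both Slc51a and Slc51b, 16 around Slc10a1 and 9 around Abcc4, against a median of 17. Relative to loci of like density, Abcc6 had a log2 ratio of -0.60 (interval -0.94 to -0.25), Abcc3 -0.37 (-0.59 to -0.15), Slc51b -0.30 (-0.54 to -0.07) and Slc10a1 -0.25 (-0.49 to -0.01). Slc51a moved from -0.28 to 0.04 (-0.21 to 0.28) and Abcc4 to -0.01 (-0.15 to 0.13). Thus 2 of the 6 loci, Abcc6 and Abcc3, were past the threshold on that scale, where 9.82% of all loci were lower by that amount and 11.8% higher. Scaling to all contacts in place of local contacts raises every log2 ratio by 0.14, and 3 loci, Abcc6, Abcc3 and Slc51b, are then past the threshold, beside 20.3% of all loci lower and 7.63% higher.

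Slc10a1, the uptake carrier on chromosome 12 (80953185 to 80968705), held 286 local contacts in vehicle and 297 in GW4064. Scaled to equal totals of local contacts, the ratio was 0.736, or -0.44 on the log2 scale (interval -0.68 to -0.20), at percentile 22.2 of loci. Scaled to all contacts it was -0.30 (-0.54 to -0.06), short of the threshold. Its bin also holds Srsf5, a splicing factor gene. The intervals lay below 0 for the distance classes up to 250 kb. Partner bins 50 kb away gave 75 and 67 contacts (log2 -0.63, interval -1.13 to -0.13), and those at 100 to 250 kb gave 108 and 98 (-0.70, -1.11 to -0.29). At 300 to 500 kb the counts were 38 and 59, with a log2 ratio of 0.10 (-0.51 to 0.73), and the classes beyond gave -0.14 (-0.79 to 0.52) and, over 1 Mb, -0.53 (-1.36 to 0.29). Contacts within the bin numbered 94 and 112, and their scaled log2 ratio of -0.22 had an interval from -0.62 to 0.20, which is too wide at this depth to show a difference.

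The contacts of Slc10a1 pointed to 1 side. Partners at higher coordinates, the side of Smoc1 and Slc8a3, took 62.6% of local contacts in vehicle (Clopper-Pearson interval 56.7% to 68.2%) and 68.0% in GW4064 (62.4% to 73.3%). A boundary between domains lay 50 kb on the lower side of the locus in both libraries, with a depth of 0.72 in vehicle and 0.64 in GW4064 on the log2 scale of the insulation score, which measures how many contacts pass over a bin. The partner most above expectation in vehicle was the bin 200 kb away that holds the end of Smoc1, a secreted matrix protein gene, and part of Slc8a3, a sodium-calcium exchanger gene. That bin held 39 contacts with Slc10a1 in vehicle and 25 in GW4064, which is 6.57 and 2.87 times the genome mean at that distance. The distance-matched log2 ratio was -1.20 (-1.98 to -0.44). Divided also by the local contacts of both bins, the enrichment was 4.84 times expected (Poisson interval 3.44 to 6.61) in vehicle and 4.13 times (2.67 to 6.09) in GW4064, intervals that overlap. The bin of Adam4, Cox16 and Gm20498 at 450 kb gave 10 and 17 contacts, 2.18 (1.04 to 4.00) and 4.43 (2.58 to 7.10) times expected. In GW4064 its interval overlaps that of the bin at 200 kb, so their order there is not resolved. The Smoc1 bin at 150 kb gave 26 and 17, 2.70 and 1.93 times expected.

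The 2 subunits of the exporter pair lie on different chromosomes and had different values. Slc51b, on chromosome 9 (65412753 to 65422773), held 312 local contacts in vehicle and 286 in GW4064, a ratio of 0.649, or -0.62 as log2 (interval -0.86 to -0.39), at percentile 9.71. Slc51a, on chromosome 16 (32475578 to 32487879), held 262 and 304, a ratio of 0.822, or -0.28 as log2 (-0.53 to -0.04), at percentile 37.7. The intervals of the subunits overlap, and the difference between them was not tested. Both had more local contacts than the genome mean in vehicle, by 1.42 times for Slc51b (Poisson interval 1.27 to 1.59) and 1.19 times for Slc51a (1.05 to 1.34). In GW4064 these values were 0.922 (0.818 to 1.03) and 0.980 (0.873 to 1.10).

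The bin of Slc51b, which also holds parts of Rasl12 and Mtfmt, had a high count of contacts within itself in vehicle. It held 163 in vehicle, at percentile 94.9 of all bins, and 154 in GW4064, at percentile 51.1. Relative to the median bin of its library this was 1.47 times in vehicle and 1.01 times in GW4064, and the scaled log2 ratio was -0.55 (interval -0.88 to -0.22). Of the 40 bins up to 1 Mb to either side, 2 lay above it in vehicle and 15 in GW4064. The corresponding bin of Slc51a, shared with Pcyt1a and Zdhhc19, held 100 and 101, with a log2 ratio of -0.45 (-0.87 to -0.04), and lay at percentiles 35.1 and 16.6. By the mean over the bins of each locus, Slc51b had the most contacts within a bin among the 6 in both libraries.

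**Figure D2:**
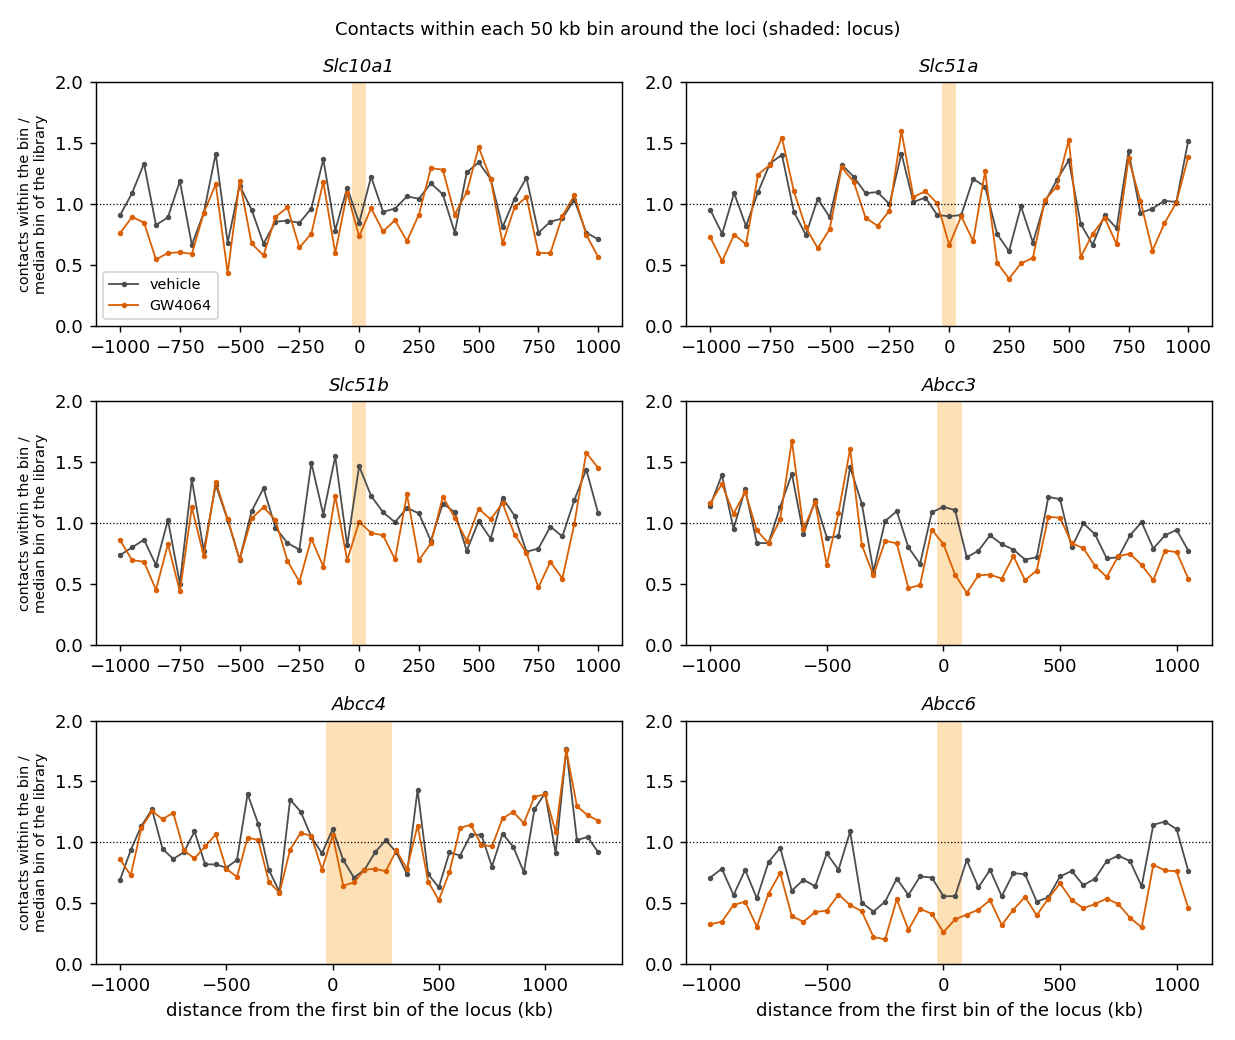
Contacts within each 50 kb bin, divided by the median bin of the library (y axis), over 1 Mb to each side of the locus (x axis, kb from its leading bin; shaded, locus). The vehicle line at Slc51b reaches 1.47 and the GW4064 line 1.01, and both lines stay below 1 at the Abcc6 locus (0.559 and 0.316).

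By distance, all 5 classes of Slc51b had values below 0, and the intervals of the nearest pair excluded 0. The median of all loci was itself below 0 with distance-matched scaling, at -0.19 over all distances to 2 Mb. Bins 50 kb away held 98 and 76 contacts (log2 -0.83, interval -1.28 to -0.39) and those at 100 to 250 kb held 91 and 80 (-0.74, -1.19 to -0.29). At 300 to 500 kb the value was -0.65 (-1.37 to 0.06), at 550 to 1000 kb -0.17 (-0.73 to 0.41), from 49 and 61 contacts, and over 1 Mb -0.51 (-1.21 to 0.20). At 500 to 1000 kb on the lower side the counts were 14 and 30, with 0.61 (-0.35 to 1.64), and on the higher side 43 and 35, with -0.78 (-1.47 to -0.11). For Slc51a the lowest values were in the farthest classes, but the intervals of its classes overlap, so their order is not resolved. Its bins 50 kb away held 60 and 76 contacts (-0.13, -0.63 to 0.39), and those at 550 to 1000 kb held 41 and 35 (-0.71, -1.40 to -0.02). At 100 to 250 kb the value was -0.26 (-0.67 to 0.14), at 300 to 500 kb -0.02 (-0.61 to 0.59), and over 1 Mb -0.90 (-1.86 to 0.03).

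**Figure D3:**
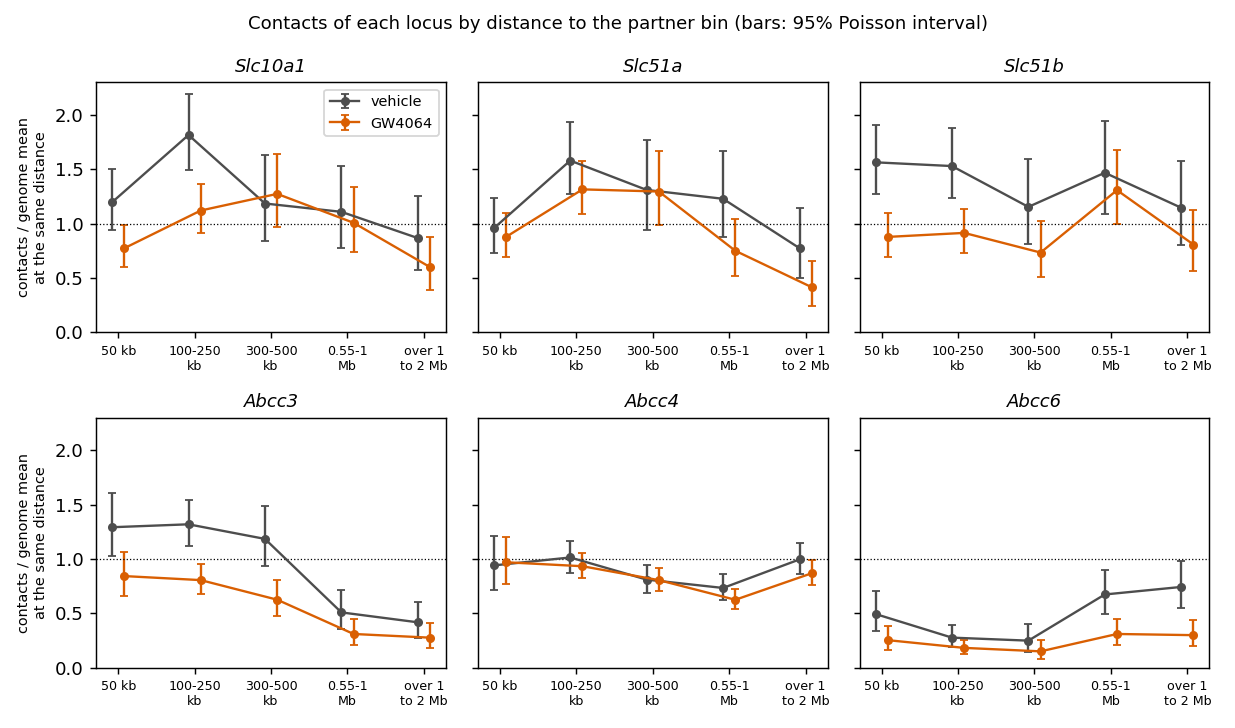
Contacts of each locus divided by the genome mean at the same distance (y axis) in 5 distance classes (x axis), vehicle in grey and GW4064 in orange, with 95% Poisson intervals. Slc51b at 50 kb stands at 1.56 in vehicle and 0.878 in GW4064, while the Abcc4 lines overlap and those of Abcc6 stay below 1 at every distance.

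The side that Slc51a faced was the lower one. Partners at higher coordinates took 41.2% (Clopper-Pearson interval 35.2% to 47.4%) of its local contacts in vehicle and 35.2% (29.8% to 40.9%) in GW4064. On the lower side lie Pcyt1a, the enzyme of phosphatidylcholine synthesis that shares its bin, and then Ubxn7 and Rnf168, whose product is a ubiquitin ligase of the DNA damage response. The bin at 200 kb, with Rnf168, Smco1 and Wdr53, held 19 and 23 contacts, 1.81 times expected in vehicle (Poisson interval 1.09 to 2.83) and 2.15 times in GW4064 (1.36 to 3.22). The Ubxn7 bin at 100 kb held 28 and 34 contacts, 1.85 and 2.01 times expected, and that of Ubxn7 and Rnf168 at 150 kb held 15 and 15, 1.39 and 1.31 times expected. On the other side, the bin of Tfrc, the transferrin receptor gene, and Tnk2 held 13 contacts in each library, 1.06 and 1.04 times expected. Slc51b had 56.1% (50.4% to 61.7%) of contacts on the higher side in vehicle and 51.0% (45.1% to 57.0%) in GW4064, where the interval includes equal shares. Its leading partner was the bin of Clpx and Pdcd7 at 100 kb, with 24 and 22 contacts, 1.22 and 1.72 times expected. The bins of Pif1 and Plekho2 at 150 kb and of Ankdd1a at 100 kb held 11 and 12, and 15 and 14 contacts, between 0.86 and 1.46 times expected.

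Abcc3, on chromosome 11 (94343295 to 94393017), held 375 local contacts in vehicle and 325 in GW4064 over its 2 bins. The ratio was 0.614 and the log2 ratio -0.70 (interval -0.92 to -0.49), at percentile 5.88. Ankrd40 and Luc7l3 share the lower bin, and the other bin holds no other protein-coding gene. Both bins were lower: local contacts were 254 and 233 in the bin shared with Luc7l3 (-0.62, -0.88 to -0.36), and 195 and 170 in the other (-0.70, -1.0005 to -0.39). Contacts within the bin were 126 in each library for the shared bin (-0.47, -0.84 to -0.10). For the other they were 123 and 88 (-0.95, -1.36 to -0.54). All 5 distance classes were below 0, from -0.59 to -0.92, and the intervals of the 3 classes up to 500 kb exclude 0. The median of all loci on that scale was -0.19 over all distances to 2 Mb.

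The contacts of Abcc3 stopped at a boundary 450 kb away on the lower side. There the insulation score was -2.68 in vehicle and -2.55 in GW4064, a depth of 2.61 and 1.90. Between 50 and 450 kb on that side Abcc3 had 145 and 128 contacts, 1.20 and 0.74 times the genome mean. Between 500 and 1000 kb, where the carbonic anhydrase-related gene Car10 lies, it had 5 and 5, which is 0.13 and 0.10 times that mean. On the higher side the same distance gave 32 and 29 contacts, 0.86 and 0.56 times. The bins 500 to 1000 kb away on the lower side held 698 to 982 contacts of all kinds in vehicle and 832 to 1264 in GW4064. The shared bin of Abcc3 held 790 and 755, and the bin that holds Abcc3 alone 725 and 567. Local contacts of those far bins were 0.54 to 0.98 times the genome mean in vehicle and 0.62 to 1.03 times in GW4064. The cause of the low count between Abcc3 and these bins was not tested. Within the domain, 3 partners on the higher side led. The bin of Acsf2, Eme1 and Lrrc59 at 250 kb held 19 and 11 contacts, 2.94 (Poisson interval 1.77 to 4.59) and 3.10 (1.55 to 5.55) times expected. The bin of Mycbpap and Rsad1 at 150 kb held 21 and 27, 2.04 and 4.48 times expected, and that of Cacna1g, Epn3 and Spata20 at 100 kb held 34 and 24, 2.58 and 3.03 times.

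Abcc4, on chromosome 14 (118482692 to 118707856), is the longest of the 6 genes at 225165 bases, and no other protein-coding gene overlaps its 6 bins. It held 745 local contacts in vehicle and 966 in GW4064, a ratio of 0.919, or -0.12 as log2 (interval -0.26 to 0.02), at percentile 57.4. The sign depends on the scaling: the log2 ratio was 0.02 scaled to all contacts and 0.06 relative to the median locus, with intervals that include 0. Other classes of contact gave intervals below 0: -0.17 (-0.23 to -0.11) for all contacts of the locus, -0.21 (-0.37 to -0.05) for contacts within its bins, and -0.15 (-0.29 to -0.00089) for partners at least 100 kb away. All contacts of the locus include those between its 6 bins, counted for each bin, so that interval is somewhat too narrow. The medians of all loci in these classes were -0.19, -0.16 and -0.19. Each lies inside the interval of Abcc4, so its values were those of an ordinary locus. Along the gene the intervals of the 6 bins overlapped one another. Their log2 ratios ran from -0.31 (-0.57 to -0.05), in the bin from 118650001 to 118700000, to 0.04 (-0.25 to 0.34) in the bin from 118550001 to 118600000. The intervals of the 2 bins nearest the upstream end lay below 0 but include -0.18, the median of all tested loci. That end of the gene, which is on the minus strand, lies in the last bin, where contacts within the bin numbered 113 and 116 (-0.43, -0.82 to -0.04).

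The contacts of Abcc4 leaned slightly to the higher side. That side took 53.7% of contacts in vehicle (Clopper-Pearson interval 50.03% to 57.3%) and 53.9% in GW4064 (50.7% to 57.1%). Its leading partners by rule were the Sox21 bin at 250 kb with 26 and 31 contacts (1.63 and 1.97 times expected), the Cldn10 bin at 100 kb with 44 and 56 (1.47 and 1.43 times), and the bin of Gpr180 and Tgds at 350 kb with 25 and 19 (1.61 and 1.249 times). The bin next to the gene on the upstream side, also in the claudin gene Cldn10, held 96 and 124 contacts summed over the 6 bins of the gene, the highest count of a partner of any of the 6 loci. Of 19 partner bins of Abcc4 with at least 20 contacts over both libraries, 0 differed by 2-fold.

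Abcc6, on chromosome 7 (45974110 to 46030491), had the lowest ratio and the fewest local contacts. It held 173 local contacts in vehicle and 123 in GW4064 over 2 bins, the higher of which also holds Nomo1. The ratio was 0.504 and the log2 ratio -0.99 (interval -1.33 to -0.65), at percentile 0.936 of loci and 1.32 after allowance for gene density. Relative to the genome mean its local contacts were 0.459 (Poisson interval 0.393 to 0.533) in vehicle and 0.230 (0.191 to 0.275) in GW4064. Its 2 bins gave -0.97 (-1.42 to -0.52) and -1.004 (-1.45 to -0.57), so neither alone sets the value. Contacts within the bin were 62 and 40 in the bin of Abcc6 alone, and 62 and 56 in the bin shared with Nomo1. The surroundings were low too: the median of the 40 flanking bins was 0.650 times the genome mean of local contacts in vehicle and 0.359 times in GW4064.

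A boundary lay on Abcc6 itself in both libraries, in the bin from 46000001 to 46050000. Its insulation score was -2.44 in vehicle and -3.07 in GW4064, with depths of 1.83 and 2.08, and the score averaged over the locus lay at percentiles 1.35 and 0.804 of all bins. Contacts went mainly to the lower side, a stretch of many short genes. The higher side, with Kcnj11 and Abcc8, the channel and sulfonylurea receptor of insulin secretion, took 27.7% (Clopper-Pearson interval 21.2% to 35.1%) in vehicle and 31.7% (23.6% to 40.7%) in GW4064. Up to 450 kb on the higher side Abcc6 held 23 and 17 contacts, 0.19 and 0.10 times the genome mean. At 1050 to 2000 kb on the lower side it held 41 and 21, which is 1.32 and 0.50 times (log2 -1.39, interval -2.22 to -0.60). On the higher side that distance gave 4 and 5 contacts, 0.13 and 0.12 times the mean, and both sides together 0.74 and 0.30 times. In vehicle, then, distant contacts were above the genome mean on the lower side only, from 41 contacts and with no interval computed. Nearer contacts were below that mean on both sides. Contacts over 2 Mb away made up 37.7% (34.6% to 40.9%) of all its contacts in vehicle and 39.4% (35.9% to 43.0%) in GW4064, against 31.9% and 31.5% over all bins.

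**Figure D4:**
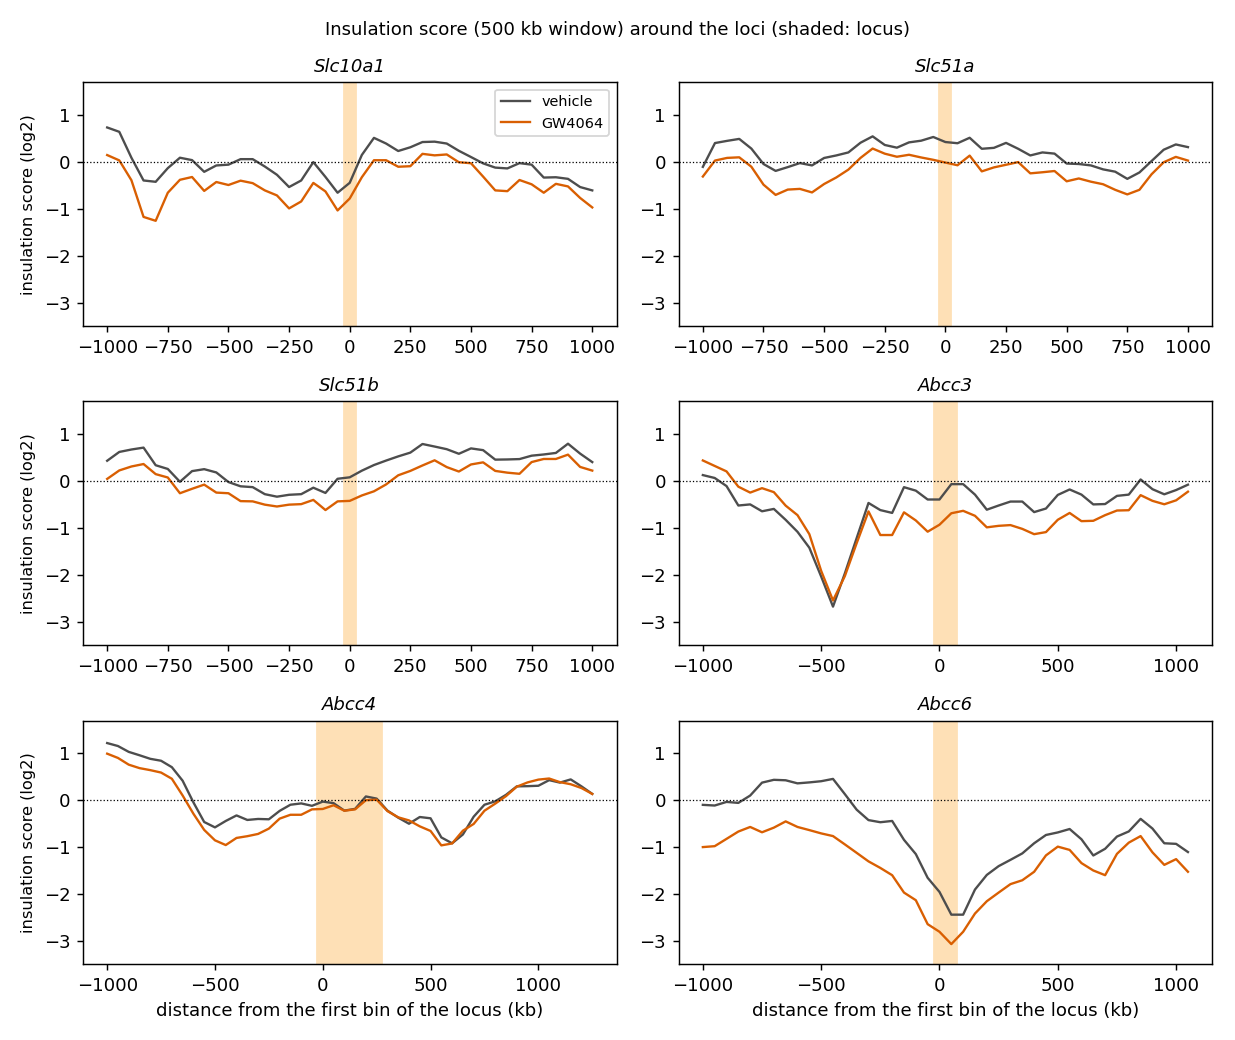
Insulation score with a 500 kb window (y axis, log2) over 1 Mb to each side of each locus (x axis, kb from its leading bin; shaded, locus). Both lines have their lowest values on Abcc6 (-2.44 in vehicle, -3.07 in GW4064), and 450 kb below Abcc3 (-2.68 and -2.55).

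With the 500 kb window, the insulation score over the locus was lower in GW4064 at all 6 loci. It was also lower at every bin up to 1 Mb around Slc10a1, Slc51a, Slc51b and Abcc6. The share of all bins with a lower score was not counted. The score is relative to the chromosome mean and is not scaled to the local contacts of a bin, which were lower too. It went from -2.20 in vehicle to -2.94 in GW4064 at Abcc6, from 0.43 to -0.01 at Slc51a, from 0.08 to -0.42 at Slc51b, from -0.23 to -0.81 at Abcc3 and from -0.44 to -0.78 at Slc10a1, and were -0.06 and -0.12 at Abcc4. The nearest boundary was called at the same place in both libraries for Slc10a1 (50 kb), Slc51a (700 kb), Abcc3 (350 kb, on the higher side) and Abcc6 (on the locus). For Abcc4 it was 350 kb away in vehicle and 300 kb in GW4064. For Slc51b it was 300 kb away in vehicle and 100 kb in GW4064, both on the lower side. Both places were local minima of the score in both libraries. At 300 kb the score was -0.33 in vehicle and -0.54 in GW4064, and at 100 kb -0.25 and -0.62. The libraries thus differ in which dip was called, and a move of the boundary was not shown.

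The exporter pair and the uptake carrier made fewer of their contacts far along the chromosome than bins in general did. Contacts over 2 Mb away were 13.8% (Clopper-Pearson interval 11.3% to 16.5%) for Slc10a1, 15.4% (12.8% to 18.3%) for Slc51a and 15.7% (13.4% to 18.2%) for Slc51b in vehicle, against 31.9% over all bins. In GW4064 they were 19.03% (16.3% to 22.0%), 10.2% (8.0% to 12.7%) and 16.6% (14.1% to 19.3%), against 31.5%. Slc10a1 thus had the higher share in GW4064 and Slc51a the higher share in vehicle. Contacts with other chromosomes were 33.3%, 32.1% and 31.7% of the vehicle contacts of these loci and 27.3%, 30.8% and 29.8% of the GW4064 contacts, against 25.5% and 21.2% over all bins. Abcc3 and Abcc4 were nearer to all bins in far contacts, with 28.5% and 27.4% in vehicle and 27.9% each in GW4064.

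By partner bin, few pairs held enough contacts to compare. Of 480 partner bins within 2 Mb of the loci, 47 held at least 20 contacts over both libraries. Of these, 7 were at least 2-fold lower in GW4064 after distance matching, or 14.9%, and 0 were higher. Among partner bins of all protein-coding loci 5.5% were lower and 3.03% higher, and among all bin pairs 3.43% and 4.88%. Of the 7, 5 belonged to Abcc3 and 2 to Slc10a1, so they share the lower totals of those loci. Divided by the local contacts of both bins, 0 of the 47 were 2-fold lower and 5 were higher, beside 1.54% and 5.91% of the partner bins of all protein-coding loci on that scale. The named pairs were the Smoc1 bins at 200 kb and 150 kb for Slc10a1, and for Abcc3 a bin without protein-coding genes at 150 kb on the lower side, with 17 and 5 contacts (log2 -2.33, interval -4.12 to -0.83), and the Acsf2 bin (-1.34, -2.55 to -0.19). Just outside the threshold lay the bin next to Slc51b with Kbtbd13, Pdcd7, Rasl12 and Ubap1l, which held 55 and 38 contacts (-0.9996, -1.64 to -0.38).

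**Figure D5:**
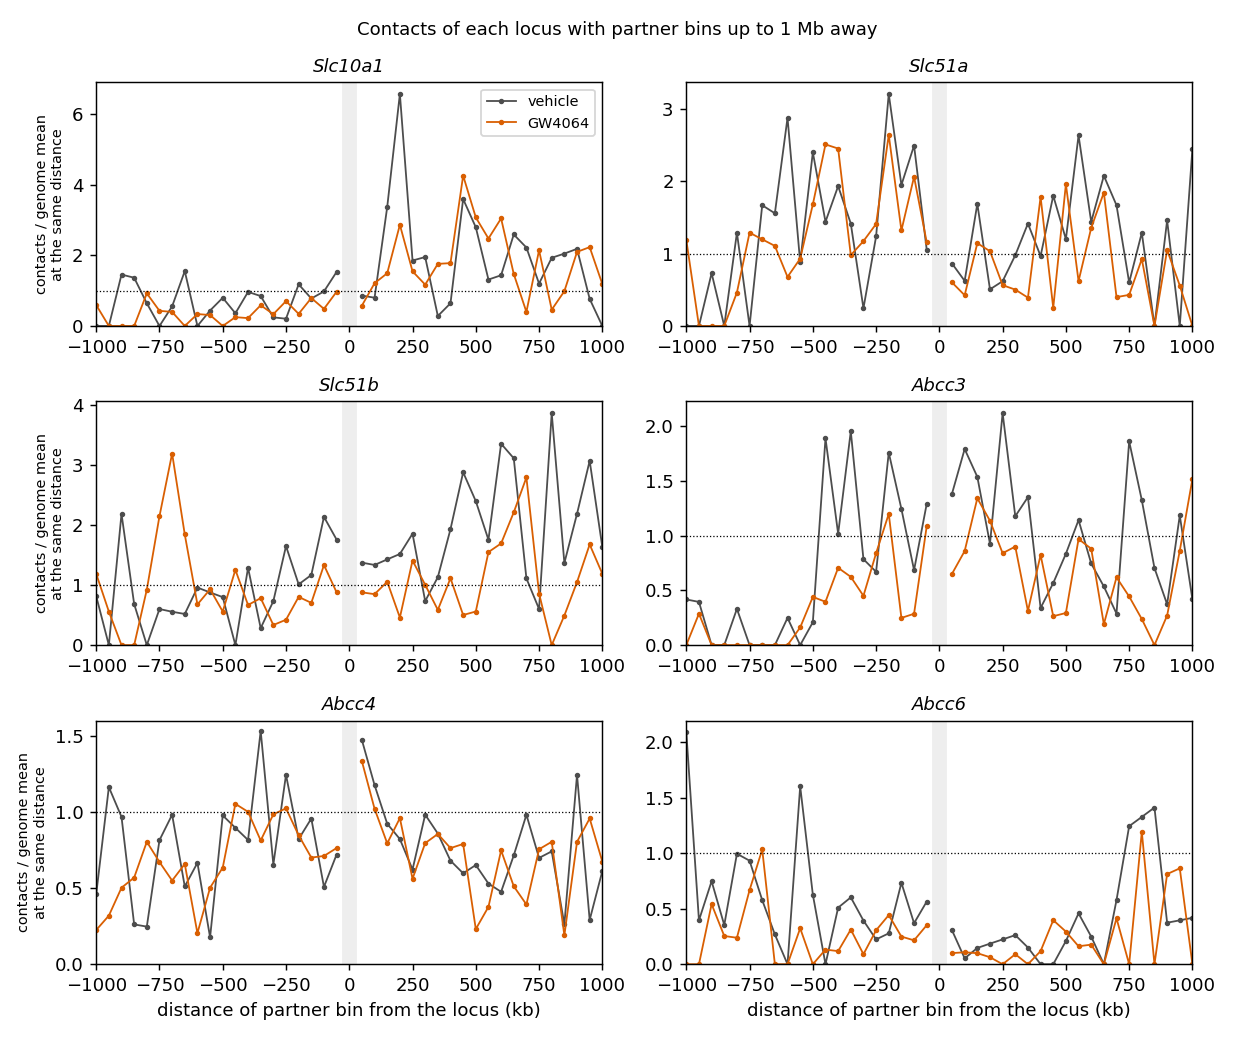
Contacts of each locus with each partner bin, divided by the genome mean at the same distance (y axis), by distance from the locus (x axis, kb; lower coordinates to the left). The Slc10a1 panel peaks 200 kb to the right at 6.57 in vehicle and 2.87 in GW4064, and in the Abcc3 panel both lines are near 0 beyond 500 kb to the left.

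Pairs enriched in both libraries were no more common than elsewhere. Of 28 partner bins with at least 10 contacts in vehicle and the matching number in GW4064, 4 were at least 2 times expected in both, or 14.3%. Among partner bins of all protein-coding loci the share was 14.8%, and among all bin pairs 16.0%. The 4 were the Smoc1 and Slc8a3 bin and the Cox16 bin for Slc10a1, and the Cacna1g and Mycbpap bins for Abcc3.

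Genes of bile acid transport, synthesis and control, with relatives of the 6 transporters, made up 7 further lists. Of their 49 genes, 19 loci were lower in GW4064 by 0.32 or more on the log2 scale and 0 were higher by as much, beside 33.1% and 1.32% of all loci. Of 7 canalicular exporters, which secrete into bile, 3 were lower, with a median log2 ratio of -0.29, from Abcg5, a sterol exporter, at -0.62 to Abcg2 at -0.01. Abcg8, at -0.44, is also among the 3. It overlaps Abcg5 and shares a bin with it, so these loci are not independent in this count or in the 19. Of 6 other basolateral carriers of organic ions 3 were lower, with a median of -0.26, from Slco2b1 at -0.56 to Slco1b2, an uptake carrier of bile acids and bilirubin, at -0.04. Of 10 genes of bile acid synthesis and conjugation 3 were lower, with a median of -0.21, from Cyp8b1, the sterol hydroxylase that makes cholic acid, at -0.62 to Cyp39a1 at 0.15. Of 8 receptors and feedback genes 5 were lower, with a median of -0.41, from Rxra, the partner of FXR, at -0.93 to Nr5a2 at -0.17.

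Of 6 sensors known to control basolateral exporters 3 were lower, with a median of -0.33, from Ppara at -0.52 to Ahr at 0.08. The last lists hold relatives of the transporters. Of 6 other ABCC genes 1, Abcc8, was lower at -0.51, and the highest was Abcc5 at -0.08, with a median of -0.23. Abcc8 is a neighbour of Abcc6, so the pair is not independent. Of 6 other SLC10 genes 1, Slc10a3, was lower at -0.51, the highest was Slc10a7 at 0.04, and the median was -0.06. Slc10a2, the ileal bile acid carrier that is the closest functional relative of Slc10a1, had -0.05 (interval -0.20 to 0.10). Relative to loci of like gene density, the medians of the 7 lists ran from -0.21 for receptors and feedback to 0.01 for the other SLC10 genes. On that scale the median of the 6 transporters was -0.28.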

How the data were processed

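Foxa2 HiChIP was measured in 1 liver library per group. Per the labels, the Arima-HiC+ kit and a Foxa2 antiserum were used. The submitters' processing notes name Bowtie2 2.2.9, HiC-Pro and the mm10 build. Read filters, duplicate handling and pooling are not stated in those sources. The deposited matrices hold raw whole-number counts of contacts per pair of 50 kb bins, and the deposited bin tables hold bin numbers of no other unit, identical in both libraries.

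From these counts, contacts of every bin overlapping a RefSeq gene (GRCm38.p6) were summed per distance and partner bin. A contact between bins is counted for each of them. In the shares of contact classes and in all contacts of a locus, a contact between bins of the same locus thus counts for both. The intervals of those values are somewhat too narrow for Abcc3, Abcc4 and Abcc6, which span more than 1 bin. Chromosomes 1 to 19 and X were used. Log2 ratios have exact conditional binomial intervals, shares Clopper-Pearson intervals and counts over expected Poisson intervals, all at 95%. Expected contacts come from distance and the local contacts of both bins. Enrichment required 10 contacts in vehicle and that number times the depth ratio in GW4064. Insulation used a 500 kb window and boundaries a depth of 0.2. Named are the 6 members, up to 3 leading partner bins 100 kb to 2 Mb away per member (with at least 20 contacts), up to 2 differing bins per direction, and the lowest and highest locus of each list. Other bins and genes were named after their values were seen. The members and lists were chosen with earlier results of these data known. Alternatives changed the window, the scaling, the locus, the contact class and the thresholds. The tools were scipy 1.17.1, numpy 2.4.6, matplotlib 3.10.9 and pandas 2.3.3 under Python 3.11.15, and the ratios were tested on simulated data.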

Additional observations from a re-analysis of the deposited data

How the results depend on the processing

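With 1 library per group, no library could be left out, and counting error is the only error given. No paired analysis was possible because each group holds 1 library. The number of loci lower by 0.32 or more (log2) was 3 to 5 under 8 other windows, scalings, loci and contact classes, and 0 were higher under any of them, beside 17.3% to 35.7% of all loci lower and 0.0868% to 10.5% higher. Abcc6, Abcc3 and Slc51b were lower by that amount in all 8, Slc10a1 in 3, Slc51a in 3 and Abcc4 in 0. After allowance for gene density, an alternative added after seeing the data, it was 2, and the median log2 ratio was -0.28. The sign of Abcc4 depended on the scaling, and that of Slc51a on the allowance for gene density, as given above. The number of partner bins differing 2-fold was 4 with at least 40 contacts. The number enriched in both libraries was 10 at 1.5 times expected and 1 with at least 20 contacts. With a 250 kb window the insulation score of Abcc3 in vehicle turned to 0.30. It became -0.38 for Abcc3 in GW4064, -0.30 for Slc51a in GW4064, and -1.97 and -2.52 for Abcc6. For Abcc4 it was -0.27 in both libraries, so with that window Abcc4 was not lower in GW4064. The cause of these changes was not tested. Without a minimum of contacts, 2.26% of loci were higher. At these depths most partner bins hold too few contacts for a 2-fold difference to be seen.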

Other observations

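Contacts between the 6 loci, which lie on 6 chromosomes, were near absent. Over their 15 pairs the vehicle library held 1 contact, between Slc10a1 and Slc51a, and the GW4064 library 0, where the totals of contacts between chromosomes would give 0.293 and 0.237. At this depth no preference of the loci for each other was detectable.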
